A study of Mus musculus with 10 samples.

Results

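Conventional type 1 dendritic cells (cDC1s) are recognised by a small set of receptors and marker genes, and 10 of these were followed here in sorted splenic cDC1s of mice with different genotypes. The genes were Xcr1, Clec9a, Ly75, Cd207, Cd36, Cadm1, Cd24a, Btla, Tlr3 and Naaa. They were chosen by symbol: a probe set had to name the listed gene alone, and of several such probe sets the one highest on average was to be used. All 10 listed genes were found, each with 1 probe set, among 19938 genes measured. Total RNA was hybridised to 10 Affymetrix arrays, 1 per sample. The groups were Zeb2 KO (n = 3), lacking the zinc finger repressor Zeb2; Nfil3 Zeb2 DKO (n = 2), lacking Zeb2 together with Nfil3, a basic leucine zipper repressor; Zeb2 Id2 DKO (n = 2), lacking Zeb2 together with Id2, which keeps E proteins from binding DNA; and WT (n = 3). By the labels, the loss of Zeb2 was thus shared by the 3 mutant groups, and no group lacked Nfil3 or Id2 alone. The age of the mice, the alleles or Cre drivers behind each deletion and the sort gate are not given in the sources used here, nor is whether replicates came from separate animals, so the p-values cover the spread of these samples alone, which may be technical. Whether any of the 10 products was itself used in the sort was not tested.

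cDC1s take up dying cells and present their antigens on MHC class I to CD8 T cells, and they depend on the transcription factors Irf8 and Batf3. Several of the 10 genes encode the surface proteins by which they find T and NK cells, bind dead cells or internalise antigen. Tlr3 and Naaa are counted with them as markers, although Tlr3 senses double-stranded RNA from within endosomes and Naaa is a lysosomal enzyme.

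The label was checked first. In WT, Xcr1, Clec9a, Cadm1, Cd24a, Tlr3, Btla, Cd36, Naaa and Ly75 lay between percentile 92.7 and percentile 99.8 of all genes by mean intensity, and Cd207 lay at percentile 73.0. Probe sets differ in affinity, so these percentiles show only that the genes were well detected. The targeted genes differed in how far they checked the labels. Id2 stood at 5.01 and 4.98 (log2 intensity) in Zeb2 Id2 DKO and between 9.89 and 10.50 on the other 8 arrays. Nfil3 stood at 6.20 and 7.09 in Nfil3 Zeb2 DKO and between 9.98 and 10.77 elsewhere. Zeb2 stood at 6.10, 6.27 and 5.40 in Zeb2 KO, 6.46 and 6.24 in the Nfil3 Zeb2 DKO arrays, 6.78 and 6.82 in Zeb2 Id2 DKO, and 6.002, 5.93 and 6.30 in WT. Both Zeb2 Id2 DKO arrays thus lay above every WT array (log2 fold change 0.72, 0.24 to 1.21, unadjusted p = 0.0071, adjusted p = 0.184, limma). The signal of this probe set goes against the label there, the sources used here do not say which part of the gene was deleted, and the loss of Zeb2 rests on the labels alone. Median intensity was 76.3 to 82.9 over the arrays. Arrays of a group correlated at 0.986 to 0.997, with Zeb2 KO the lowest, and limma's array weights gave Zeb2 KO replicate 3 a weight of 0.187 against 0.669 to 1.62 for the other 9 arrays.

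RefSeq promoter windows, from 250 bases before to 50 bases after a gene's start on build GRCm38.p6, were available for 8 of the 10 genes, all but Cadm1 and Cd24a. Of these, 4 are shown as examples of genes with different ranges over the 10 arrays. Xcr1 (chr9:123861980-123862279, minus strand) and Clec9a (chr6:129408612-129408911, plus strand) had ranges of 0.42 and 0.36 log2. Cd207 (chr6:83677808-83678107, minus strand) and Tlr3 (chr8:45410331-45410630, minus strand) had ranges of 1.41 and 0.50 log2. The median range over all genes was 0.41 log2. Capitals mark the E-box letters CANNTG, the pattern bound by E proteins and, in its form CAGGTG, by Zeb2, and in Cd207 also the AP-1-type letters TGANTCA.
Xcr1: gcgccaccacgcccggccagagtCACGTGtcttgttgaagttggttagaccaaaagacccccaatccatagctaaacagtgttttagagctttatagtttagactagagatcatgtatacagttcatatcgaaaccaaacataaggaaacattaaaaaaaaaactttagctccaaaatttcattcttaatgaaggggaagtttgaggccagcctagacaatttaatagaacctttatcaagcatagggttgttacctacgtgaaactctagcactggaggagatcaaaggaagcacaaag
Clec9a: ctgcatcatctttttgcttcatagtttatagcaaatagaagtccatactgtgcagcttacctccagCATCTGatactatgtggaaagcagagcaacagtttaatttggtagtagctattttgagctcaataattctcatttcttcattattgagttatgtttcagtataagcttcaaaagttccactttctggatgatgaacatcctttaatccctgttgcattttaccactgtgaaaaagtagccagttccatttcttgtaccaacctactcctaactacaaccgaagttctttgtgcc
Cd207: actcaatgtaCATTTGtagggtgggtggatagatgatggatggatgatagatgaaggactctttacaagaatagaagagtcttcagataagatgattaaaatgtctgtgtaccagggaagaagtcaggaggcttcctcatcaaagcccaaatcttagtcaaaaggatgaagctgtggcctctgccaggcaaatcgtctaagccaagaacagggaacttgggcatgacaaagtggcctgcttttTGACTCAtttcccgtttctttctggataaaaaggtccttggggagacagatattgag
Tlr3: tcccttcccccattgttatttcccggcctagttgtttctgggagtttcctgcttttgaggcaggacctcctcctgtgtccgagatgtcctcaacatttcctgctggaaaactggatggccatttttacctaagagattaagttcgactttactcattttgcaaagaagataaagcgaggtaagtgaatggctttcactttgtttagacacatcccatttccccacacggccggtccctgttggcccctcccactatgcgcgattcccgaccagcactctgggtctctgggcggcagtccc
Xcr1, Clec9a and Cd207 each held 1 E-box, Cd36 and Btla 2 each, and Ly75, Naaa and Tlr3 none. Of all 32817 promoter windows in the table, 72.3% held the E-box letters, so their presence in 5 of 8 windows does not set these genes apart. CAGGTG, present in 20.2% of all windows, was in none of the 8. Neither were the interferon-type letters GAAA followed after 2 bases by GAAA (3.43% of all windows), the PU.1 and IRF composite letters GGAA followed after 2 bases by GAAA (2.72%), or the Nfil3-type letters TTACGTAA (0.119%) and TTATGTAA (0.935%), both strands searched. The AP-1-type letters were found in Cd207 alone, against 7.81% of all windows. A window contains only these 300 bases, and nothing about a factor follows from the absence of its letters.

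**Figure D1:**
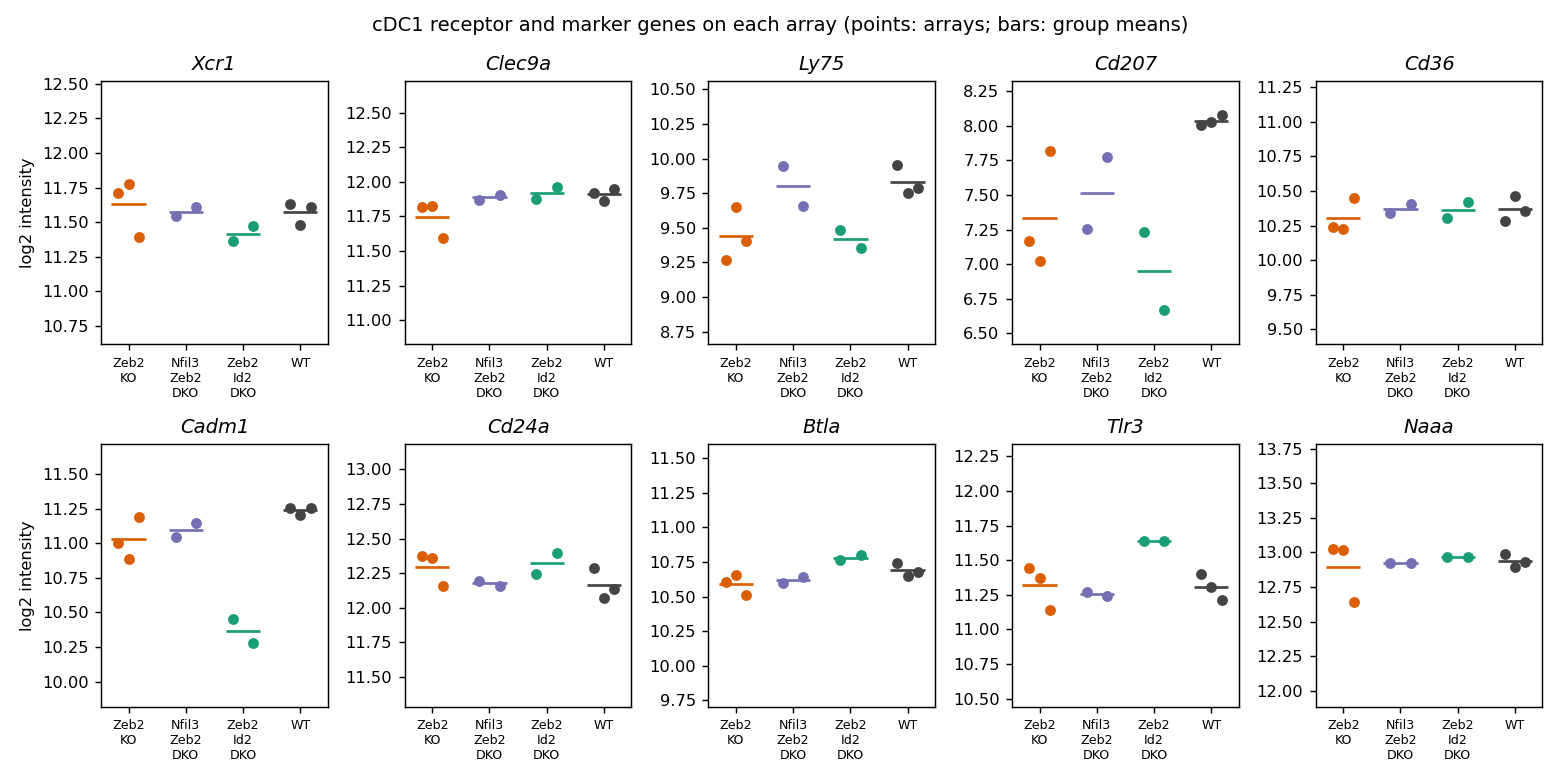
Log2 intensity (y axis) of the 10 genes on each array, by genotype (x axis). Points are arrays and bars are group means, and every panel spans the same range on the y axis. Cadm1 stands at 10.45 and 10.28 in Zeb2 Id2 DKO, below every other array, and Cd207 has its 3 highest values in WT, between 8.0025 and 8.08.

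In the main test, Cadm1 was the only one of the 10 genes called by limma (adjusted p under 0.05) in any comparison. It was lower in Zeb2 Id2 DKO than in each of the other 3 genotypes. Cadm1 encodes an adhesion molecule of the immunoglobulin superfamily that binds Crtam on activated T and NK cells. Its log2 intensity was 11.005, 10.89 and 11.19 in Zeb2 KO, 11.04 and 11.14 in the Nfil3 Zeb2 DKO arrays, 10.45 and 10.28 in Zeb2 Id2 DKO, and 11.26, 11.21 and 11.25 in WT. Both Zeb2 Id2 DKO arrays lay under all 8 others.

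Against WT, Cadm1 averaged 10.37 ± 0.12 in Zeb2 Id2 DKO and 11.24 ± 0.03 in WT (SD, n = 2 and 3), a 1.83-fold fall (log2 fold change -0.87, 95% interval -1.10 to -0.65, adjusted p = 0.00225, limma). Against Zeb2 KO, at 11.03 ± 0.15 (SD, n = 3), the fall was 1.58-fold (log2 -0.66, -0.89 to -0.44, adjusted p = 0.0187, limma). The fall against Nfil3 Zeb2 DKO, at 11.09 ± 0.07 (SD, n = 2), was 1.65-fold (log2 -0.73, -0.97 to -0.48, adjusted p = 0.0146, limma). These comparisons share the Zeb2 Id2 DKO arrays. In order of mean level the genotypes ran Zeb2 Id2 DKO, Zeb2 KO, Nfil3 Zeb2 DKO and WT. Zeb2 KO, Nfil3 Zeb2 DKO and WT were neighbours that limma did not separate. Their log2 fold changes were -0.21 in Zeb2 KO over WT (-0.41 to -0.01, adjusted p = 0.659), -0.15 in Nfil3 Zeb2 DKO over WT (-0.37 to 0.08, adjusted p = 1.0) and 0.06 in Nfil3 Zeb2 DKO over Zeb2 KO (-0.16 to 0.29, adjusted p = 0.912). All 7 arrays labelled as lacking Zeb2 nevertheless lay below all 3 WT arrays, as for Cd207, a pattern found in 1.09% of all genes. None of the 10 lay above WT on all 7 arrays, as 0.833% of all genes did.

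As background for these counts, genes called at an adjusted p under 0.05 (Benjamini-Hochberg over all 19938 genes) made up 1.43% of all genes in Zeb2 Id2 DKO against WT (0.557% lower), 0.497% in Zeb2 Id2 DKO against Zeb2 KO (0.13% lower) and 0.792% in Zeb2 Id2 DKO against Nfil3 Zeb2 DKO (0.211% lower). In each of these 3 comparisons 1 of the 10 genes, Cadm1, was called. In Zeb2 KO against WT, where 0.0201% of all genes were called (0.015% lower), and in Nfil3 Zeb2 DKO against WT and against Zeb2 KO, where 0.00502% were called each time, none of the 10 was called by limma. At an unadjusted p under 0.05, 3 of the 10 passed in Zeb2 KO against WT (Cadm1, Ly75 and Cd207), where 7.39% of all genes did, 0 in Nfil3 Zeb2 DKO against WT (4.16%) and 1 in Nfil3 Zeb2 DKO against Zeb2 KO (Ly75, 8.5%). By the same measure 4 passed in Zeb2 Id2 DKO against WT (Cadm1, Cd207, Ly75 and Tlr3, 10.2%), 3 against Zeb2 KO (Cadm1, Tlr3 and Btla, 7.35%) and 3 against Nfil3 Zeb2 DKO (Cadm1, Tlr3 and Ly75, 11.5%).

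The call of Cadm1 against WT held with every array left out in turn and under each other setting tried (adjusted p 9.49e-05 to 0.0493). Its call against Zeb2 KO was lost without Zeb2 Id2 DKO replicate 1 (adjusted p = 0.105) or replicate 2 (adjusted p = 0.261), and with the replicate number as a block (adjusted p = 0.0597). That against Nfil3 Zeb2 DKO was lost without either Nfil3 Zeb2 DKO array (adjusted p = 0.12 and 0.115, replicate 1 and 2) or without Zeb2 Id2 DKO replicate 1 or 2 (adjusted p = 0.0679 and 0.174). The log2 fold change stayed between -0.75 and -0.58 over Zeb2 KO and between -0.81 and -0.64 over Nfil3 Zeb2 DKO.

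**Figure D2:**
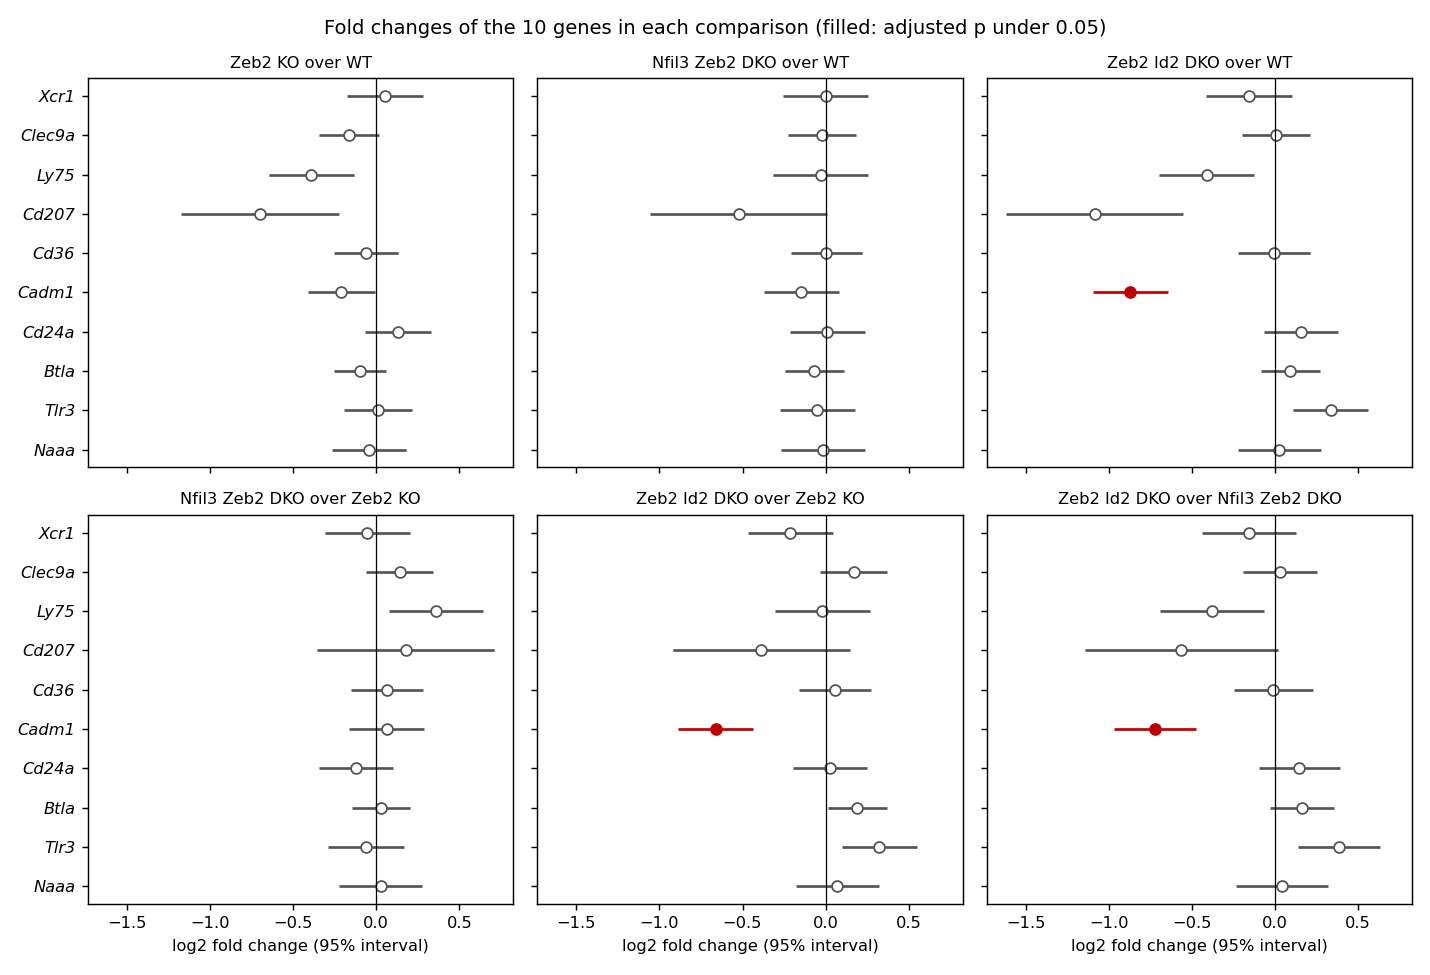
Log2 fold changes (x axis) of the 10 genes (y axis) in the 6 comparisons, with 95% intervals from limma. Filled points passed at an adjusted p under 0.05. Only Cadm1 has filled points, in the 3 comparisons of Zeb2 Id2 DKO with another genotype.

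Marker lists of other cell types differed between genotypes in several ways. No probe set was at 0 on any array. Summed linear intensity over 14 neutrophil markers ranged over 7276 to 16586 in the Zeb2 KO arrays. It was 2901 to 4705 in Nfil3 Zeb2 DKO, 5859 to 15936 in Zeb2 Id2 DKO and 1579 to 1981 in WT. All 14 had positive log2 fold changes over WT in each of the 3 mutant genotypes. In Zeb2 Id2 DKO 7 of the 14 were called, beside 1.43% of all genes. In Zeb2 KO 1 was called, Ngp (8.06-fold, adjusted p = 0.0255, limma), beside 0.0201% of all genes. There 13 of the 14 had an unadjusted p under 0.05, beside 7.39%. In Nfil3 Zeb2 DKO none was called, and 4 had an unadjusted p under 0.05, beside 4.16%. Erythroid markers (7 of 12 listed were measured) summed to 1400 to 1805 in the Zeb2 KO arrays, 491 to 1104 in Nfil3 Zeb2 DKO, 2180 to 2611 in Zeb2 Id2 DKO and 712 to 1378 in WT. For 13 plasmacytoid dendritic cell (pDC) markers the sums were 2827 to 3689, 3508 to 3648, 5311 to 5345 and 3493 to 3695 in the same genotypes. For 9 monocyte markers the sums were 4074 to 6284 in the Zeb2 KO arrays, 5696 to 6074 in Nfil3 Zeb2 DKO, 7108 to 7185 in Zeb2 Id2 DKO and 4688 to 5259 in WT. For 14 red pulp macrophage markers they were 3213 to 4205, 3693 to 3940, 3108 to 3420 and 4376 to 5050 in the same genotypes. Treml4 alone gave most of each of these sums. Its log2 intensity was 11.47, 11.12 and 11.38 in Zeb2 KO and 11.21 and 11.35 in the Nfil3 Zeb2 DKO arrays. It was 11.07 and 11.19 in Zeb2 Id2 DKO, and 11.62, 11.74 and 11.49 in WT. Which cells gave the Treml4 signal was not tested. In that order of genotypes, sums of 15 cDC2 markers were 3569 to 3755, 3977 to 4607, 3641 to 3937 and 4041 to 4504, and of 11 B cell markers 1230 to 1962, 1655 to 1669, 1602 to 1691 and 1611 to 3128. Likewise, sums of 10 T cell markers were 1162 to 1278, 1472 to 1561, 1350 to 1468 and 1253 to 1354, and of 12 NK cell markers 893 to 1513, 1277 to 1322, 1344 to 1361 and 932 to 1309. A sum can hide single genes. In Zeb2 Id2 DKO against WT, 10.2% of all genes had an unadjusted p under 0.05. Among the lists this held for 7 of 7 erythroid, 11 of 14 neutrophil, 9 of 10 T cell and 5 of 9 monocyte markers. It held for 8 of 15 cDC2, 4 of 12 NK cell and 4 of 14 red pulp macrophage markers. For pDC markers it was 3 of 13 and for B cell markers 1 of 11. Of the T cell markers Cd6 was called higher (3.54-fold, adjusted p = 0.000372) and Cd3d, Cd3g and Lat lower (1.53-fold to 1.98-fold), and of the NK cell markers Il2rb was called lower (1.94-fold, adjusted p = 0.0328). Called in the other lists were Siglech and Bst2 (pDC), Car2 and Hemgn (erythroid) and Ms4a6c (monocyte), all higher, and Hpgd and Vcam1 (red pulp macrophage), both lower. These marker genes were named after their values were seen. Erythroid, monocyte and pDC sums were highest in Zeb2 Id2 DKO, where Cadm1 was lowest. The pDC list did not rise as a whole over WT, with 6 of 13 log2 fold changes positive and a median of -0.01. Its called genes had log2 fold changes of 1.67 (Siglech) and 0.98 (Bst2). Positive values were found in 7 of 7 erythroid markers (median 0.99) and 6 of 9 monocyte markers (median 0.33). In Zeb2 KO over WT they were found in 7 of 7 erythroid (median 0.50) and 5 of 9 monocyte markers (median 0.03). In Nfil3 Zeb2 DKO over WT they were found in 0 of 7 erythroid (median -0.41) and 8 of 9 monocyte markers (median 0.12). The part of these lists in the fall of Cadm1 was not tested. In bulk RNA, fewer cells carrying a transcript and less of it per cell cannot be told apart.

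**Figure D3:**
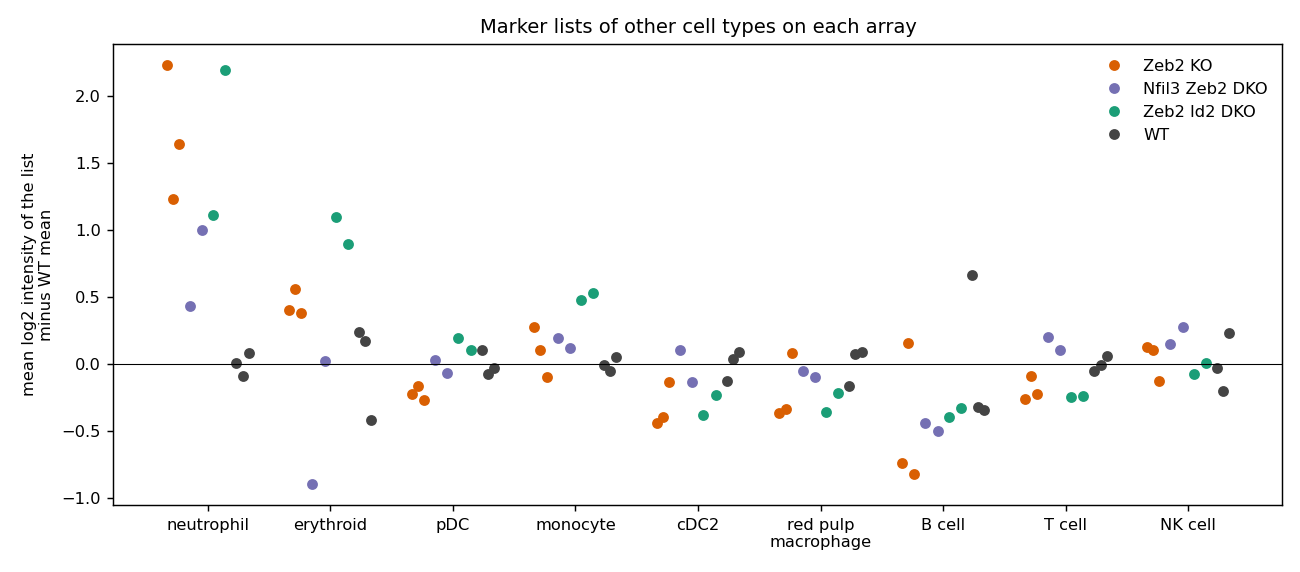
Mean log2 intensity of marker lists of other cell types on each array, minus the WT mean (y axis), by list (x axis) and genotype (colour). Points are arrays. Neutrophil markers lie above WT on every mutant array, and erythroid markers are highest in Zeb2 Id2 DKO, at 1.10 and 0.90 above the WT mean.

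The 3 genes whose pattern over the 10 arrays was most like that of Cadm1 were Abcc10, a member of the ABC transporter family (Pearson r = 0.984), Eda, which encodes the TNF family ligand ectodysplasin (r = 0.97), and Esyt3, an extended synaptotagmin (r = 0.965). The 10 arrays fall into genotypes, so these values describe mainly a low level in Zeb2 Id2 DKO. Mean log2 intensity of Esyt3 was 8.84 in Zeb2 KO, 8.96 in Nfil3 Zeb2 DKO, 7.97 in Zeb2 Id2 DKO and 9.02 in WT. For Abcc10 the means were 7.81, 7.85, 7.47 and 7.94 in the same genotypes, and for Eda 6.20, 6.28, 5.83 and 6.30.

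**Figure D4:**
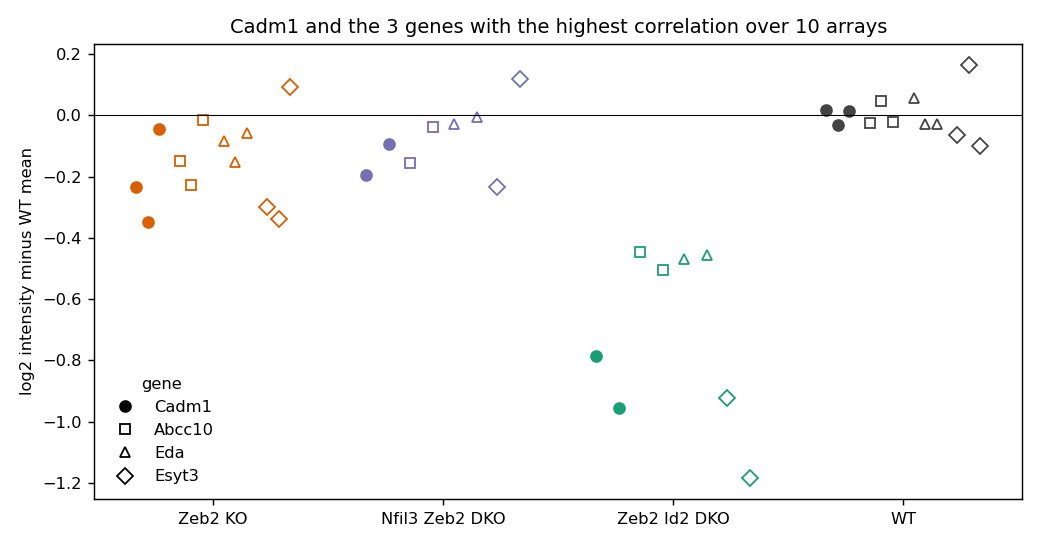
Log2 intensity minus the WT mean (y axis) of Cadm1 and of the 3 genes with the highest correlation with it, by genotype (x axis). Points are arrays and symbols are genes. All 4 genes have their lowest values on the Zeb2 Id2 DKO arrays.

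Among the C-type lectins and their relatives, Cd207 had lower values than WT in all 3 mutant genotypes and Ly75 in Zeb2 KO and Zeb2 Id2 DKO, and neither passed the test over all genes. Cd207, or langerin, is a C-type lectin of Langerhans cells that part of the mouse cDC1s also carry. Its log2 intensity was 7.17, 7.02 and 7.82 in Zeb2 KO, 7.25 and 7.77 in the Nfil3 Zeb2 DKO arrays, 7.23 and 6.67 in Zeb2 Id2 DKO, and 8.0025, 8.03 and 8.08 in WT. The WT arrays lay together above all 7 others, and arrays of each mutant genotype lay apart from one another (SD 0.37 to 0.43 against 0.04 in WT).

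The log2 fold change of Cd207 was -1.09 in Zeb2 Id2 DKO over WT (-1.62 to -0.55, adjusted p = 0.0602, limma), -0.70 in Zeb2 KO over WT (-1.18 to -0.22, adjusted p = 0.448) and -0.52 in Nfil3 Zeb2 DKO over WT (-1.05 to 0.01, adjusted p = 1.0). The 3 comparisons share the WT arrays. The last value was -0.26 without Nfil3 Zeb2 DKO replicate 1 and -0.78 without replicate 2. Without Zeb2 KO replicate 3, which carried the highest Cd207 of its group, the fall in Zeb2 Id2 DKO over WT passed at adjusted p = 0.00598 and that in Zeb2 KO over WT at 0.0357, the second with a log2 fold change of -0.94. In Zeb2 Id2 DKO over WT that omission left the log2 fold change at -1.09 and changed the shared estimate of the spread. The adjustment over all genes changed too, with 760 genes called in that comparison instead of 286. With array weights in limma, Cd207 in Zeb2 Id2 DKO over WT passed at adjusted p = 0.00452 (log2 -1.09). The mutant genotypes did not separate among themselves (log2 fold changes -0.39, -0.56 and 0.18, adjusted p 0.457 to 0.892).

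Ly75, or DEC-205, is an endocytic receptor of the mannose receptor family through which antigen can be targeted to cDC1s. Log2 intensities were 9.27, 9.65 and 9.40 in Zeb2 KO, 9.94 and 9.65 in the Nfil3 Zeb2 DKO arrays, 9.49 and 9.35 in Zeb2 Id2 DKO, and 9.95, 9.75 and 9.79 in WT. Zeb2 KO and Zeb2 Id2 DKO lay wholly below WT, and Nfil3 Zeb2 DKO overlapped it. The log2 fold change was -0.39 in Zeb2 KO over WT (-0.65 to -0.14, adjusted p = 0.419), -0.41 in Zeb2 Id2 DKO over WT (-0.70 to -0.13, adjusted p = 0.208) and -0.03 in Nfil3 Zeb2 DKO over WT (-0.32 to 0.25, adjusted p = 1.0). Nfil3 Zeb2 DKO stood above Zeb2 KO by 0.36 log2 (0.07 to 0.64, adjusted p = 0.462), and Zeb2 Id2 DKO below Nfil3 Zeb2 DKO by -0.38 (-0.69 to -0.07, adjusted p = 0.317). None of these passed under any alternative setting (adjusted p at least 0.0704).

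Clec9a, also called DNGR-1, is the C-type lectin that binds actin exposed on dead cells. Its values were 11.82, 11.83 and 11.60 in Zeb2 KO, 11.87 and 11.91 in the Nfil3 Zeb2 DKO arrays, 11.87 and 11.96 in Zeb2 Id2 DKO, and 11.92, 11.86 and 11.95 in WT. Zeb2 KO arrays were the lowest, replicate 3 most of all, and the double mutants overlapped WT. Zeb2 Id2 DKO stood 0.17 above Zeb2 KO (-0.03 to 0.37, adjusted p = 0.776), and over all 6 comparisons no 95% bound of Clec9a reached further than 1.29-fold. The range over the arrays was 0.36 log2 for Clec9a and 1.41 for Cd207. Whether the E-box letters shown above have a part in either was not tested.

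The level of Tlr3, which recruits the adaptor Ticam1 on binding double-stranded RNA, was highest in Zeb2 Id2 DKO. Log2 intensities were 11.45, 11.37 and 11.14 in Zeb2 KO, 11.27 and 11.24 in the Nfil3 Zeb2 DKO arrays, 11.64 and 11.64 in Zeb2 Id2 DKO, and 11.40, 11.31 and 11.21 in WT. Both Zeb2 Id2 DKO arrays lay above the other 8, whose genotypes overlapped. The log2 fold change was 0.33 over WT (0.11 to 0.56, adjusted p = 0.195), 0.32 over Zeb2 KO (0.10 to 0.55, adjusted p = 0.366) and 0.38 over Nfil3 Zeb2 DKO (0.14 to 0.63, adjusted p = 0.176), none past the threshold in limma. Without Zeb2 KO replicate 3 the first passed at adjusted p = 0.0408 and the last at 0.0367. With array weights they passed at 0.0197 and 0.0159.

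Of 13 listed genes of Tlr3 signalling, 10 were measured. In Zeb2 Id2 DKO against WT, 1 was called higher and none lower (1.43% of all genes called). Of the 10 log2 fold changes, 3 were positive, with a range of -0.85 to 1.33. An unadjusted p under 0.05 was found for 3 of the 10 (10.2% of all genes). The gene called was Irf7, a transcription factor of interferon induction. Its mean was 11.56 ± 0.29 in Zeb2 Id2 DKO and 10.23 ± 0.12 in WT (SD, n = 2 and 3, 2.52-fold, adjusted p = 0.0212, limma). It also rose against Nfil3 Zeb2 DKO (10.25 ± 0.18; 2.49-fold, adjusted p = 0.048). The median log2 fold change of the 10 was -0.04 against WT, beside -0.01 for all genes. The call of Irf7 against WT was lost without WT replicate 2 (adjusted p = 0.0856), WT replicate 3 (adjusted p = 0.0765) or Zeb2 Id2 DKO replicate 1 (adjusted p = 0.0808) or 2 (adjusted p = 0.246), and with the replicate block (adjusted p = 0.0506). That against Nfil3 Zeb2 DKO was lost with any array left out except Zeb2 KO replicates 1 and 3 (adjusted p up to 0.397).

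Xcr1 is the receptor for Xcl1, a chemokine released by NK cells and activated CD8 T cells. Its log2 intensity was 11.71, 11.78 and 11.40 in Zeb2 KO, 11.54 and 11.61 in the Nfil3 Zeb2 DKO arrays, 11.36 and 11.47 in Zeb2 Id2 DKO, and 11.64, 11.48 and 11.61 in WT. Zeb2 Id2 DKO held the lowest and Zeb2 KO the highest array, and Zeb2 KO replicate 3 lay near the low end. The largest difference was -0.21 in Zeb2 Id2 DKO over Zeb2 KO (-0.47 to 0.04, adjusted p = 0.78), and no 95% bound over the 6 comparisons exceeded 1.38-fold.

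Naaa, an enzyme that hydrolyses N-acylethanolamines such as palmitoylethanolamide, had group means within 0.07 log2 of each other. Its log2 intensity was 13.03, 13.01 and 12.64 in Zeb2 KO, 12.93 and 12.92 in the Nfil3 Zeb2 DKO arrays, 12.97 and 12.96 in Zeb2 Id2 DKO, and 12.99, 12.90 and 12.93 in WT. Zeb2 KO replicate 3 lay below the other 9 arrays, which lay close together. The smallest adjusted p over the 6 comparisons was 0.938.

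Cd36, a scavenger receptor for oxidised lipids and dying cells that red pulp macrophages and other cells also express, likewise had group means within 0.07 log2. It stood at 10.24, 10.23 and 10.45 in Zeb2 KO, 10.34 and 10.41 in the Nfil3 Zeb2 DKO arrays, 10.30 and 10.42 in Zeb2 Id2 DKO, and 10.28, 10.47 and 10.36 in WT, with all genotypes overlapping. Its 95% bounds stayed within 1.22-fold, and its range over the 10 arrays, 0.24 log2, was smaller than that of most genes (percentile 10.3).

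Cd24a, a small glycan-rich protein held in the membrane by a lipid anchor, stood at 12.37, 12.36 and 12.16 in Zeb2 KO, 12.20 and 12.16 in the Nfil3 Zeb2 DKO arrays, 12.24 and 12.40 in Zeb2 Id2 DKO, and 12.29, 12.07 and 12.14 in WT. The genotypes overlapped except that Zeb2 Id2 DKO lay above Nfil3 Zeb2 DKO, by 0.15 (-0.10 to 0.39, adjusted p = 0.688). Erythroid cells, B cells and neutrophils carry this gene as well.

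Btla, an inhibitory receptor that binds Tnfrsf14, had log2 intensities of 10.61, 10.66 and 10.51 in Zeb2 KO, 10.60 and 10.64 in the Nfil3 Zeb2 DKO arrays, 10.76 and 10.80 in Zeb2 Id2 DKO, and 10.74, 10.65 and 10.68 in WT. Both Zeb2 Id2 DKO arrays were above the other 8. The difference was 0.19 over Zeb2 KO (0.01 to 0.37, unadjusted p = 0.0377, adjusted p = 0.627, limma), 0.16 over Nfil3 Zeb2 DKO (-0.03 to 0.36, adjusted p = 0.546) and 0.09 over WT (-0.09 to 0.27, adjusted p = 0.861).

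Xcr1, Clec9a, Cd36, Cd24a, Btla and Naaa therefore gave 36 tests over the 6 comparisons, with a smallest adjusted p of 0.546. Their intervals leave room for changes of up to 1.38-fold. Zeb2 KO replicate 3 was the lowest array of its group for 6 genes (Xcr1, Clec9a, Cd24a, Btla, Naaa and Tlr3) and the highest for 3 (Cadm1, Cd207 and Cd36). Over all genes it was the lowest in 30.9% and the highest in 49.4%.

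Arrays of Zeb2 Id2 DKO did not overlap those of WT in 6 of the 10 genes, against 31.4% of all genes. They were lower in Xcr1, Ly75, Cd207 and Cadm1 (16.2% of all genes) and higher in Btla and Tlr3 (15.2%). Against Nfil3 Zeb2 DKO, 8 of the 10 did not overlap (52.4% of all genes), with Xcr1, Ly75, Cd207 and Cadm1 lower (29.5%) and Tlr3, Btla, Cd24a and Naaa higher (22.9%). Against Zeb2 KO, 4 of the 10 did not overlap (20.2%), with Cadm1 lower (10.2%) and Clec9a, Btla and Tlr3 higher (10.0%). Zeb2 KO did not overlap WT in Clec9a, Cadm1, Ly75 and Cd207 (10.4%), where it was lower in each (5.03%) and higher in none of the 10 (5.37%). Nfil3 Zeb2 DKO did not overlap WT in Cadm1, Cd207 and Btla (23.8%), where it was lower in each (10.7%) and higher in none of the 10 (13.1%). It did not overlap Zeb2 KO in Clec9a and Ly75 (22.1%), where it was higher in both (11.9%) and lower in none of the 10 (10.2%). The median size of the 10 log2 fold changes was 0.16 in Zeb2 Id2 DKO over WT, beside 0.08 for all genes, 0.11 in Zeb2 KO over WT, beside 0.08, and 0.03 in Nfil3 Zeb2 DKO over WT, beside 0.07.

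Of 18 other cDC1 genes, all measured, 1 rose, 1 fell and 16 were not called in Zeb2 Id2 DKO against WT, where 1.43% of all genes were called. Their median log2 fold change was 0.04. Fzd1, a Wnt receptor, averaged 8.21 ± 0.03 in Zeb2 Id2 DKO and 9.33 ± 0.30 in WT (SD, n = 2 and 3), a 2.18-fold fall (adjusted p = 0.00937). Septin3, a GTP-binding cytoskeletal protein, averaged 10.60 ± 0.02 and 9.63 ± 0.03 in the same genotypes, a 1.96-fold rise (adjusted p = 0.0222), and rose 2.27-fold against Nfil3 Zeb2 DKO (9.42 ± 0.21, adjusted p = 0.0176). The call of Fzd1 was lost without Zeb2 Id2 DKO replicate 1 (adjusted p = 0.0987) or 2 (adjusted p = 0.0938). Septin3 against WT was lost without any WT or Zeb2 Id2 DKO array (adjusted p 0.0553 to 0.205) and with the replicate block (adjusted p = 0.0599), and against Nfil3 Zeb2 DKO without any array of either group (adjusted p 0.0567 to 0.232). In the 3 comparisons without Id2 loss, none of the 18 was called by limma. At an unadjusted p under 0.05, 3 of the 18 passed in Zeb2 KO against WT (7.39% of all genes). In Nfil3 Zeb2 DKO, 1 passed against WT (4.16%) and 6 against Zeb2 KO (8.5%). In Zeb2 Id2 DKO, 7 of the 18 passed against WT (10.2%), 5 against Zeb2 KO (7.35%) and 8 against Nfil3 Zeb2 DKO (11.5%). Medians of the 18 were 0.0009 in Zeb2 KO over WT, -0.05 in Nfil3 Zeb2 DKO over WT and -0.03 in Nfil3 Zeb2 DKO over Zeb2 KO.

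The ligands and partners of the 10 gene products were measured for 14 of 16 genes, and none was called in any of the 6 comparisons by limma. At an unadjusted p under 0.05, 2 of the 14 passed in Zeb2 KO against WT (7.39% of all genes). In Nfil3 Zeb2 DKO, 2 passed against WT (4.16%) and 4 against Zeb2 KO (8.5%). In Zeb2 Id2 DKO, 1 passed against WT (10.2%), 2 against Zeb2 KO (7.35%) and 6 against Nfil3 Zeb2 DKO (11.5%). Their median log2 fold change was between -0.13 and 0.02. Thbs1, which encodes the Cd36 ligand thrombospondin-1, had a log2 fold change of 1.03 in Zeb2 KO over WT (0.36 to 1.70, adjusted p = 0.416) and 0.72 in Zeb2 Id2 DKO over WT (-0.03 to 1.47, adjusted p = 0.524). The second value was 0.31 without Zeb2 Id2 DKO replicate 2, 1.12 without replicate 1 and 0.45 without WT replicate 1. Xcl1, the ligand of Xcr1, had -0.46 in Zeb2 Id2 DKO over WT (-1.09 to 0.18, adjusted p = 0.727), with -0.26 without Zeb2 Id2 DKO replicate 1, -0.19 without WT replicate 3 and -0.70 without WT replicate 2.

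None of 24 other lectin receptor genes was called by limma in any comparison, with a median log2 fold change of -0.16 in Zeb2 Id2 DKO over WT and 4 positive values. At an unadjusted p under 0.05, 10 of the 24 passed in Zeb2 KO against WT (7.39% of all genes) and 8 in Zeb2 Id2 DKO against WT (10.2%). In Nfil3 Zeb2 DKO, 2 passed against WT (4.16%) and 3 against Zeb2 KO (8.5%). In Zeb2 Id2 DKO, 3 passed against Zeb2 KO (7.35%) and 6 against Nfil3 Zeb2 DKO (11.5%). The largest changes in Zeb2 KO over WT were in Cd209a (log2 -1.40, -1.97 to -0.82, adjusted p = 0.168) and Cd209d (log2 -1.19, -1.80 to -0.58, adjusted p = 0.265), both relatives of DC-SIGN. Clec7a, the beta-glucan receptor dectin-1, averaged 7.80 ± 0.13 in Zeb2 Id2 DKO and 8.64 ± 0.31 in WT (SD, n = 2 and 3), a log2 fold change of -0.84 (-1.25 to -0.43, adjusted p = 0.0587). Cd209d had -1.01 (-1.69 to -0.33, adjusted p = 0.19), and it passed without WT replicate 1 (adjusted p = 0.0038, log2 -1.41) and with array weights (0.0266). Clec7a passed without WT replicate 1 (adjusted p = 0.0193, log2 -1.01) or Zeb2 KO replicate 3 (adjusted p = 0.0284), with array weights (0.0074) and with the replicate block (0.0414). Of 20 other scavenger and dead-cell receptor genes, 1 was called in Zeb2 Id2 DKO against WT and the other 19 were not (1.43% of all genes called). It was Stab2, a clearance receptor of endothelium, which fell (6.65 ± 0.15 in Zeb2 Id2 DKO and 7.30 ± 0.10 in WT, log2 -0.65, adjusted p = 0.0332). Its call was lost without any array except WT replicate 1 and Zeb2 KO replicates 2 and 3 (adjusted p up to 0.341) and with the replicate block (adjusted p = 0.0927). None of 14 general dendritic cell genes was called by limma in any comparison, with medians between -0.01 and 0.03. At an unadjusted p under 0.05, 2 of the 14 passed in Zeb2 KO against WT (7.39% of all genes). In Nfil3 Zeb2 DKO, 0 passed against WT (4.16%) and 1 against Zeb2 KO (8.5%). In Zeb2 Id2 DKO, 3 passed against WT (10.2%), 1 against Zeb2 KO (7.35%) and 2 against Nfil3 Zeb2 DKO (11.5%). Ccr7, the receptor that guides migrating dendritic cells to lymph nodes, had a log2 fold change of -0.90 in Zeb2 Id2 DKO over WT (10.36 ± 0.05 in Zeb2 Id2 DKO and 11.26 ± 0.08 in WT, adjusted p = 0.0685). Zbtb46, a transcription factor of conventional dendritic cells, had 1.07 (0.22 to 1.91, adjusted p = 0.302), and 0.54 without WT replicate 2, which stood at 6.42 beside 8.19 and 7.79 on the other WT arrays. The value of Ccr7 passed without Zeb2 KO replicate 1 (adjusted p = 0.0202) or 3 (adjusted p = 0.002) and with array weights (0.00151).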

How the data were processed

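The deposited values are linear intensities, which the authors made with RMA in Affymetrix Expression Console, per the submitters' processing notes. They lay between 5.05 and 16019, and log2 was taken with no pseudocount. Versions and the annotation used are not given in the sources used here. Of 28853 probe sets, 21789 named 1 gene, 1621 several and 5443 none, per the platform annotation. Where 999 genes had several, the highest mean over arrays was kept, and no filter on level was applied.

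With all 10 arrays in 1 fit, genotype means were estimated in limma 3.58.1 in R 4.3.3 (6 residual and 4.47 prior degrees of freedom). All 6 contrasts were tested, with Benjamini-Hochberg adjustment within each. The number of arrays limits the precision: the median 95% interval reached 0.22 to 0.26 log2 either side. Alternatives were array weights, an intensity trend, quantile normalization, the mean of probe sets, a dim filter (mean log2 of 6), a replicate block and each array left out.

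The 10 genes and the gene lists were chosen with earlier results of these data known. Named genes were the 10, the 3 targets, the 3 closest in pattern to any called one, and from each list those called (at most 4, by p) or otherwise the 2 largest changes. Marker lists of other cell types were summed per array.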

Additional observations from a re-analysis of the deposited data

How the results depend on the processing

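Over 16 alternatives (6 other settings and 10 left-out arrays) and 72 results, 1045 of 1152 values kept their direction and their side of the threshold, and 51 changed sign, each of them a value of at most 0.11 log2 in size that passed no test. The cause of the changes below was not tested. The number of the 10 genes called became 3 in Zeb2 Id2 DKO against WT and 2 in Zeb2 Id2 DKO against Nfil3 Zeb2 DKO with array weights, and 0 in Zeb2 Id2 DKO against Zeb2 KO with the replicate block. With each array left out it was 0 to 1 in Zeb2 KO against WT, and 1 to 3, 0 to 1 and 0 to 2 in Zeb2 Id2 DKO against WT, Zeb2 KO and Nfil3 Zeb2 DKO. Over all genes, array weights gave 75 calls in Zeb2 KO against WT (4 in the main test), 23 in Nfil3 Zeb2 DKO against WT (1), 1076 in Zeb2 Id2 DKO against WT (286), 4 in Nfil3 Zeb2 DKO against Zeb2 KO (1), 256 in Zeb2 Id2 DKO against Zeb2 KO (99) and 1139 in Zeb2 Id2 DKO against Nfil3 Zeb2 DKO (158). The intensity trend gave 6 in Zeb2 KO against WT. Left-out arrays gave 0 to 165, 1 to 7, 67 to 760, 1 to 106, 25 to 148 and 23 to 704 in the same order, and the highest of each came without Zeb2 KO replicate 3 (for Nfil3 Zeb2 DKO against WT also without Nfil3 Zeb2 DKO replicate 2). Replicate numbers are shared by the labels. Over 13 same-numbered pairs the correlation of deviations from the group means was -0.312 to 0.162. With means of 2 or 3 arrays, the deviations within a group depend on each other. These correlations therefore cannot show whether same-numbered arrays shared a batch. The replicate block gave 8 calls in Zeb2 KO against WT and 183 in Zeb2 Id2 DKO against WT.

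Values that changed sign were, in log2: with array weights, Naaa 0.0596 in Zeb2 KO over WT, Cd36 -0.016 in Nfil3 Zeb2 DKO over WT, Btla -0.012 and Naaa -0.0664 in Nfil3 Zeb2 DKO over Zeb2 KO, and Cd24a -0.027 and Naaa -0.025 in Zeb2 Id2 DKO over Zeb2 KO. With the replicate block they were Xcr1 -0.049 and Cd24a -0.031 in Nfil3 Zeb2 DKO over WT, Clec9a -0.022, Cd36 0.027 and Naaa -0.039 in Zeb2 Id2 DKO over WT, Naaa -0.0364 in Nfil3 Zeb2 DKO over Zeb2 KO and Cd24a -0.017 in Zeb2 Id2 DKO over Zeb2 KO. With quantile normalization they were Ly75 0.0043 in Nfil3 Zeb2 DKO over WT, Clec9a -0.0039 in Zeb2 Id2 DKO over WT and Cd24a -0.005 in Zeb2 Id2 DKO over Zeb2 KO. With each array left out, the lowest and highest values were, in Zeb2 KO over WT, Xcr1 -0.0199 to 0.17, Naaa -0.11 to 0.081 and Tlr3 -0.053 to 0.10. In Nfil3 Zeb2 DKO over WT they were Xcr1 -0.046 to 0.034, Ly75 -0.18 to 0.11, Cd24a -0.037 to 0.0701, Cd36 -0.037 to 0.053 and Naaa -0.037 to 0.0078. In Zeb2 Id2 DKO over WT they were Clec9a -0.038 to 0.0496 and Cd36 -0.065 to 0.053. In Nfil3 Zeb2 DKO over Zeb2 KO they were Xcr1 -0.17 to 0.021, Cadm1 -0.0067 to 0.14, Cd207 -0.083 to 0.44, Btla -0.012 to 0.062, Naaa -0.097 to 0.093 and Tlr3 -0.15 to 0.0022. In Zeb2 Id2 DKO over Zeb2 KO they were Ly75 -0.11 to 0.082, Cd24a -0.053 to 0.10, Cd36 -0.0025 to 0.13 and Naaa -0.056 to 0.14. In Zeb2 Id2 DKO over Nfil3 Zeb2 DKO they were Clec9a -0.015 to 0.072 and Cd36 -0.0696 to 0.048.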
